A study of Homo sapiens with 9 samples.

Results

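Immediate-early genes and the feedback genes of the mitogen-activated protein kinase (MAPK) pathway were followed in HepG2 cells after small interfering RNA knockdown of HNF4alpha and HNF4gamma together. The list held 42 genes, and its members were taken by gene symbol, each represented by the brightest of the probe sets annotated to it alone, by the mean log2 value over all arrays. A probe set of this kind was used for 41 of the 42 genes, and none for EGR2. Of these 41 genes, 38 passed the filter on dim probe sets and were tested among 13056 tested genes of 19775 annotated ones. HepG2 is an established hepatocellular carcinoma line with many traits of hepatocytes. Both targets are nuclear receptors, and HNF4alpha controls a large share of the genes that define hepatocytes. The 9 arrays form 3 groups of 3, called knockdown1 and knockdown2, both labelled as double knockdowns of HNF4alpha and HNF4gamma, and a knockdown control. What sets knockdown1 apart from knockdown2, what the control cells received and how long after transfection RNA was taken are not in the labels. Nor do they say whether replicates were separate cultures, so the p-values rest on differences among arrays that may be technical.

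Immediate-early genes are transcribed within minutes to hours of a stimulus without new protein synthesis. In the classical route a growth factor receptor activates RAS, then the kinases RAF, MEK and ERK, and ERK phosphorylates factors such as ELK1 that bind with SRF at serum response elements. Many products are transcription factors (AP-1, EGR and KLF proteins), and others shut the pathway down again. The DUSP phosphatases remove the phosphates that activate MAP kinases, and Sprouty (SPRY) and SPRED proteins restrain signalling between the receptor and RAF. In liver these genes are known for their rapid induction after partial hepatectomy and injury.

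Promoter windows from RefSeq (GRCh38.p14, 250 bases before to 50 bases after the annotated start) were matched to 29 of the 41 members, some with several starts, which gave 36 windows. The windows are shown for the 4 members with the largest rises, among those called in both knockdowns that had an entry and could be shown, to show where serum response and EGR motifs lie in genes that moved together. Capitals mark every match, on either strand, to a CArG box (the SRF-binding core of the serum response element), an AP-1 site (TGANTCA), a cyclic AMP response element (TGACGTCA), an EGR site (GCGNGGGCG) or an HNF4 motif (CAAAGTCCA). The sequences lie at chr14:75278578-75278877 (FOS, plus strand), chr19:13150161-13150460 (IER2, plus strand), chr5:138465229-138465528 (EGR1, plus strand) and chr9:107489720-107490019 (KLF4, minus strand).
FOS: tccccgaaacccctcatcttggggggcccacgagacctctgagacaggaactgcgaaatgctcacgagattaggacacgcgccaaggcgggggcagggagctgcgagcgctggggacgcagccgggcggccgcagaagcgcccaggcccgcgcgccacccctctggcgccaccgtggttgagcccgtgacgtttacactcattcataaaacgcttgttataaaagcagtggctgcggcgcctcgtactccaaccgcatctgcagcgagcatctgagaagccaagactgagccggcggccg
IER2: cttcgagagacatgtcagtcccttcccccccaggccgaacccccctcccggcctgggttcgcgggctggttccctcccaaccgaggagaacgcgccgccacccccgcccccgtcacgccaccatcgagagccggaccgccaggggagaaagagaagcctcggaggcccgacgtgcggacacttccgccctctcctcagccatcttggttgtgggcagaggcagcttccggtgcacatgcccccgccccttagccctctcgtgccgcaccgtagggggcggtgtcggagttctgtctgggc
EGR1: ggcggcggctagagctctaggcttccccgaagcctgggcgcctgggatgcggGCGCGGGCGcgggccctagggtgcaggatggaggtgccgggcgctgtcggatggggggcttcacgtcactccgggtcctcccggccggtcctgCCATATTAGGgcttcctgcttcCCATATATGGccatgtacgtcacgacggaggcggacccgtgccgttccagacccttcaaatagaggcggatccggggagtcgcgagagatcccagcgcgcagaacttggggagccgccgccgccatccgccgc
KLF4: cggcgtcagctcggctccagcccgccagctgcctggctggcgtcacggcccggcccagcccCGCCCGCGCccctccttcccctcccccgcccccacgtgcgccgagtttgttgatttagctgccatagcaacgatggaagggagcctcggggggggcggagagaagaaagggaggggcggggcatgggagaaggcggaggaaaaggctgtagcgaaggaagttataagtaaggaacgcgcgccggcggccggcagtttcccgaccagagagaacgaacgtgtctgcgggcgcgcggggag
The EGR1 window held CArG boxes at bases -105 to -96 and -83 to -74 from the start, and an EGR site at -198 to -190. The KLF4 window held an EGR site on its other strand at -189 to -181. None of the 5 motifs stood in the FOS and IER2 windows as written, which says only that these letters are not in these bases. Among all 36 member windows, 2 held a CArG box (EGR1 and SRF), or 5.56%, against 1.29% of the 35116 windows in the table. An EGR site stood in 9 member windows, those of EGR1, KLF2, KLF4, KLF6, DUSP2, SPRY1, SPRY2, SPRY4 and SRF, or 25% of them, against 9.43% of all windows. The AP-1 site stood in 2 (FOSL2 and SPRED2), or 5.56%, against 7.71% of all windows. The cyclic AMP response element stood in 3 (JUND, DUSP1 and DUSP8), or 8.33%, against 1.85%. The HNF4 motif stood in 1 (SPRY2), or 2.78%, against 0.384%. These are letter matches, with no measurement of binding. FOSL1, EGR3, KLF10, DUSP4, DUSP5, IER3, MYC, ARC, LIF, ETV4, ETV5 and MCL1 were not matched.

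Values are linear MAS5 signals, scaled here so that every array has the median 14.1, and differences are on the scale log2(scaled signal + 1.41). This scale understates the change of dim genes, and the brightness of one probe set cannot be set against that of another. The deposited array medians lay between 12.3 and 15.7. Across the tested genes, a description only, log2 values correlated at 0.973 to 0.978 within groups and at 0.931 to 0.953 between arrays of different groups. A gene was called when its adjusted p from limma, with Benjamini-Hochberg adjustment over the 13056 genes, was under 0.05. Where a pair of values follows a setting in parentheses, they are the log2 difference and that adjusted p. As the check of the targets, HNF4G had scaled signals of 14.4, 23.5 and 17.4 in knockdown1, 41.9, 24.4 and 28.6 in knockdown2, and 45.2, 47.9 and 44.9 in control. It fell by 1.28 on the log2 scale in knockdown1 (SE 0.28, adjusted p = 5.38e-04 by limma), and its difference in knockdown2 was -0.56 (SE 0.28, adjusted p = 0.142 by limma). A dimmer HNF4G probe set had 12.7, 4.31 and 1.98 in knockdown1, 13.3, 1.04 and 2.84 in knockdown2 and 37.5, 28.4 and 21.3 in control. It lay under the array median of 14.1 on every knockdown array and passed the filter only through the control arrays. Its lower values in the knockdowns are thus a description only. With that limit, averaged over both probe sets HNF4G differed by -1.74 in knockdown1 (adjusted p = 0.00359 by limma) and by -1.52 in knockdown2 (0.0111). No probe set annotated to HNF4A alone was used here. All 7 hepatocyte and HepG2 markers lay above the array median on all 9 arrays, and their summed signal was 20239 to 24678 in knockdown1, 22705 to 24353 in knockdown2 and 24865 to 30715 in control. Of these markers 4 fell and 0 rose in knockdown1 and 3 fell and 0 rose in knockdown2, among them TF (-0.91 and -0.61), APOA1 (-0.80 and -0.63) and TTR (-0.58 and -0.76). Across all tested genes 19.0% fell in knockdown1 and 13.9% in knockdown2. The summed signal of 4 endothelial markers was 74.4 to 91.9 in knockdown1, 87.5 to 109 in knockdown2 and 59.7 to 61.8 in control, with CDH5, VWF and KDR under the array median on all arrays and PECAM1 higher in both knockdowns (0.49 and 0.69 on the log2 scale). Of 5 fibroblast markers 1 was above the median on all arrays, with sums of 96.5 to 122 in knockdown1, 93.3 to 102 in knockdown2 and 85.4 to 130.1 in control, and DCN fell in knockdown1 (-1.19). Of 4 leukocyte markers measured, LYZ was above the median on all arrays, PTPRC and CD3E were below it on all, and CD14 fell in both knockdowns (-2.80 and -2.53), with sums of 2706 to 3431 in knockdown1, 3353 to 4211 in knockdown2 and 2960.0 to 3928 in control. The ratio of the 3' to the 5' GAPDH control probe sets was 0.897 to 0.957 in knockdown1, 0.918 to 0.939 in knockdown2 and 0.907 to 0.934 in control, and that of beta-actin 1.19 to 1.28 in knockdown1, 1.16 to 1.20 in knockdown2 and 1.17 to 1.39 in control. Control replicate 3 had the highest beta-actin ratio (1.39), the lowest deposited median (12.3) and the largest scaling factor (1.15). In bulk RNA, a change in the number of cells that express a gene and a change in RNA per cell cannot be told apart. The part of cell types and RNA quality in the differences below was not tested.

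Most members were higher in knockdown2 than in control, a smaller number in knockdown1, and where the knockdowns differed the level was nearly always lower in knockdown1. In knockdown1, 19 of the 38 tested members rose and 5 fell, and 14 were not called. The falls included KLF2, which passed the filter only on arrays of the other groups. FOS, counted among the rises in both knockdowns, passed it through its knockdown arrays. Across all tested genes 14.3% rose and 19.0% fell in knockdown1, 33.3% in either direction. In knockdown2, 27 members rose and 1 fell, with 10 not called, against 13.7% of all genes higher, 13.9% lower and 27.6% in either direction. The median difference of the members was 0.43 in knockdown1 and 0.96 in knockdown2, beside -0.01 and 0.01 for all tested genes. Both comparisons share the 3 control arrays. The members were chosen with earlier results of these data known. Their shares beside those of all genes, here and by family below, are therefore a description only. Set directly against each other, knockdown1 was lower than knockdown2 for 20 members and higher for 1, SRF, with 17 not called. In that comparison 10.5% of all genes were higher, 16.1% lower and 26.6% either, and the medians were -0.39 for the members and -0.03 for all genes. With the values as deposited, without scaling to a common median, 26 members rose and 2 fell in knockdown1, 27 rose and 1 fell in knockdown2, and 4 were higher and 18 lower in knockdown1 than in knockdown2. That choice moved the median of all genes between the knockdowns to 0.08, and differences are given here relative to the scaled median.

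**Figure D1:**
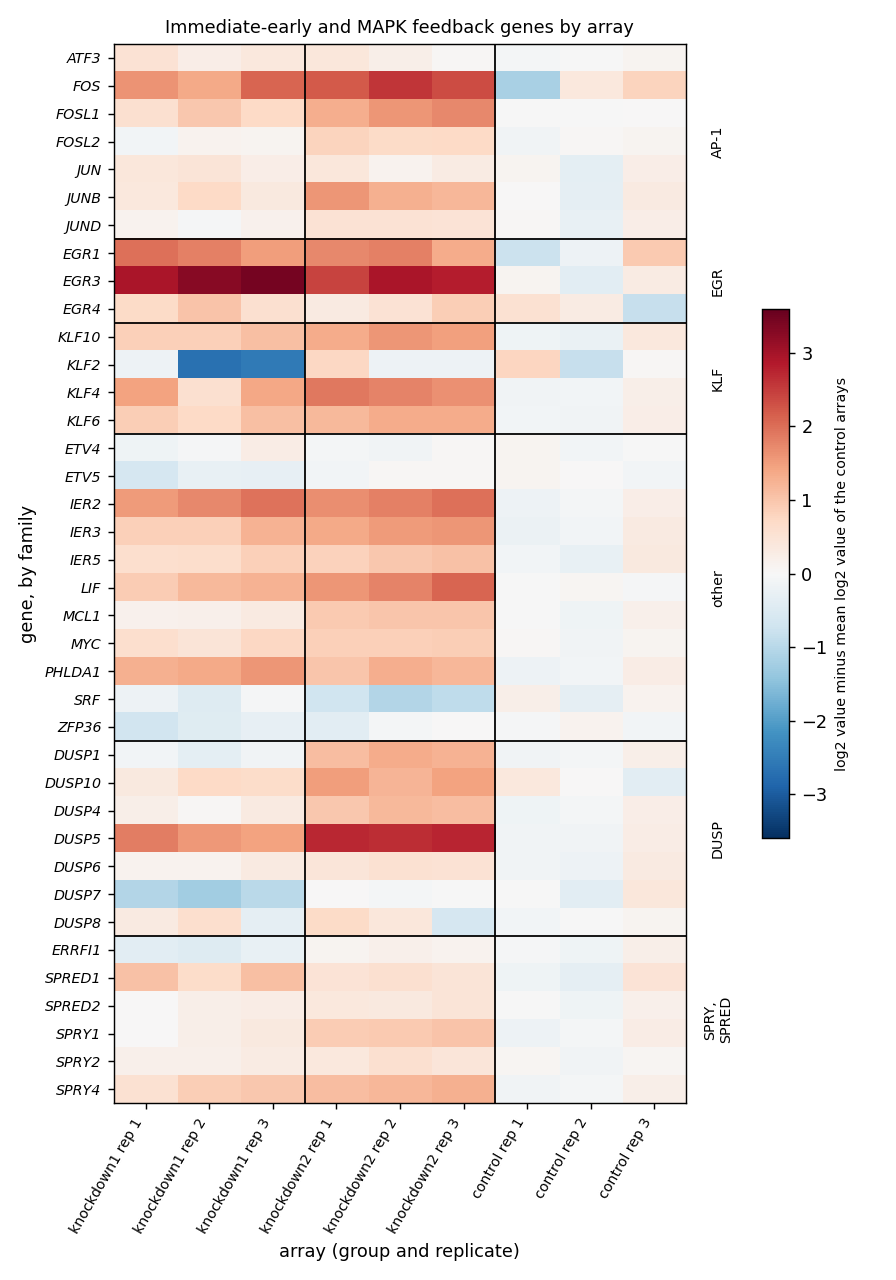
Log2 value of each tested member on each of the 9 arrays (columns, by group), minus the mean log2 value of the 3 control arrays, with rows ordered by family and colour from blue (lower) to red (higher). EGR3, FOS, DUSP5, EGR1 and IER2 are red on every knockdown array, while DUSP7 is blue on the knockdown1 arrays and near white on the knockdown2 arrays.

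The EGR genes encode zinc-finger transcription factors that carry immediate-early signals to later genes. All 3 measured members rose in knockdown1 (median difference 1.77) and 2 rose in knockdown2 (median 1.62), beside 14.3% and 13.7% of all tested genes. EGR3, a target of ERK and calcium signals, had scaled signals of 159, 201 and 224 in knockdown1, 111, 160.3 and 147 in knockdown2, and 20.9, 14.6 and 24.2 in control. Every knockdown array of EGR3 lay far above the 3 control arrays, in which the gene was near the array median. The rise of EGR3 was 3.22 ± 0.20 (SE, adjusted p = 6.36e-13 by limma) in knockdown1 and 2.74 ± 0.20 (SE, adjusted p = 2.60e-11 by limma) in knockdown2. Between the knockdowns its difference was 0.48 ± 0.20 (SE, adjusted p = 0.0733 by limma), which passed the threshold with the values as deposited (0.60, adjusted p = 0.0119 by limma), without knockdown1 replicate 1 (0.62, adjusted p = 0.0427 by limma) and without control replicate 2 or 3 (0.48 each).

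EGR1, the family member studied most as a serum-response gene and the one with both CArG boxes above, gave signals of 1761, 1582 and 1263 in knockdown1, 1472, 1581 and 1116 in knockdown2, and 259, 393 and 863 in control. All 6 knockdown arrays of EGR1 were above all control arrays, and the control arrays spread over a wide range, with replicate 3 the highest. EGR1 rose by 1.77 ± 0.25 (SE, adjusted p = 1.73e-06 by limma) in knockdown1 and by 1.62 ± 0.25 (SE, adjusted p = 9.31e-06 by limma) in knockdown2. With single arrays left out, its rise in knockdown1 ranged over 1.38 to 2.25. The difference between the knockdowns was 0.15 with a 95% interval of -0.36 to 0.65. All 3 EGR1 probe sets were higher in both knockdowns, but they disagreed on the order of arrays within a group. A further one had 424, 584 and 1972 in knockdown1 and 331, 236 and 147 in control, with control replicate 3 the lowest.

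For EGR4, whose product binds the same kind of GC-rich site, the brightest probe set gave 40.2, 51.0 and 36.6 in knockdown1, 31.0, 35.6 and 46.5 in knockdown2, and 36.2, 30.0 and 13.0 in control. Its knockdown1 arrays stood just above the control arrays and its knockdown2 arrays overlapped them. The rise in knockdown1 was 0.76 ± 0.30 (SE, adjusted p = 0.0479 by limma), and the difference in knockdown2 was 0.59 ± 0.30 (SE, adjusted p = 0.151 by limma). The call in knockdown1 was lost without control replicate 3 (0.34, adjusted p = 0.329 by limma), without knockdown1 replicate 1 (0.80, 0.0798), 2 (0.63, 0.168) or 3 (0.86, 0.0626) and with the values as deposited (0.84, 0.0682). A dimmer EGR4 probe set had 67.4, 79.6 and 100.3 in knockdown1, 24.3, 34.5 and 35.0 in knockdown2 and 6.95, 13.6 and 12.3 in control. This probe set lay under the array median on every control array and passed the filter only through its knockdown arrays. Its differences from control are thus a description only. Its groups did not overlap. With that limit, it differed from control by 2.79 in knockdown1 and 1.43 in knockdown2 (adjusted p by limma over probe sets 1.21e-07 and 5.29e-04). Between the knockdowns it differed by 1.36 (8.64e-04). The probe sets of EGR4 disagree on the size, and the dimmest of 3, with signals of 2.53 to 23.6, was not called (0.26 in knockdown1 and -0.89 in knockdown2). Without control replicate 1 the middle probe set became the brightest, with the same limit on its differences from control. It then gave 2.53 in knockdown1 (adjusted p = 1.28e-08 by limma), 1.17 in knockdown2 (0.00205) and 1.36 between the knockdowns (7.91e-05). Averaged over its probe sets, EGR4 differed by 1.27 in knockdown1 (0.00322), a mean that includes the middle probe set and shares its limit.

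The AP-1 family holds the FOS and JUN proteins, which pair to form a transcription factor, and the stress-induced ATF3. Of 7 tested members 3 rose in knockdown1 (FOS, FOSL1 and JUNB) and 5 in knockdown2, those 3 with FOSL2 and JUND, and 0 fell in either. The rises are 42.9% and 71.4% of the 7, beside 14.3% and 13.7% of all tested genes, of which 19.0% and 13.9% fell. FOS, the prototype immediate-early gene, had signals of 26.2, 21.6 and 37.0 in knockdown1, 40.4, 52.1 and 44.3 in knockdown2, and 2.55, 10.3 and 14.2 in control. All knockdown arrays of FOS were above the control arrays, and control replicates 1 and 2 lay under the array median of 14.1. FOS thus passed the filter through its knockdown arrays, and the size of its rises against control is uncertain. FOS rose by 1.69 ± 0.40 (SE, adjusted p = 0.00135 by limma) in knockdown1 and 2.38 ± 0.40 (SE, adjusted p = 3.58e-05 by limma) in knockdown2. At this brightness the size depended on the pseudocount, from 0.89 to 1.91 in knockdown1 and from 1.40 to 2.62 in knockdown2. Without control replicate 1 the rise of FOS in knockdown1 was 1.10 (adjusted p = 0.0107 by limma). The difference of FOS between the knockdowns was -0.69 with a 95% interval of -1.51 to 0.12, and it passed the threshold only where the fit was limited to those 6 arrays (adjusted p = 0.0313 by limma).

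FOSL1, which encodes the FOS relative FRA1 and is a target of lasting ERK activity, gave 130.4, 173 and 142 in knockdown1, 217, 261 and 291 in knockdown2, and 85.4, 86.2 and 88.0 in control. The control arrays were almost level, and the 3 groups stood apart without overlap. FOSL1 rose by 0.76 ± 0.16 (SE, adjusted p = 4.37e-04 by limma) in knockdown1 and 1.54 ± 0.16 (SE, adjusted p = 2.14e-08 by limma) in knockdown2, and knockdown1 was lower than knockdown2 (-0.78 ± 0.16 SE, adjusted p = 4.37e-04 by limma). JUNB, a JUN protein that often restrains JUN itself, had 65.6, 83.2 and 63.7 in knockdown1, 153, 124 and 115 in knockdown2, and 50.2, 39.4 and 62.1 in control. Its 3 groups did not overlap either, with knockdown2 the highest. JUNB rose by 1.36 ± 0.19 (SE, adjusted p = 3.07e-06 by limma) in knockdown2. In knockdown1 its rise of 0.49 ± 0.19 (SE, adjusted p = 0.0488 by limma) was close to the threshold, and the call was lost without control replicate 1 (adjusted p = 0.0887 by limma) or 2 (0.33, 0.197), without knockdown1 replicate 1 (0.0616), 2 (0.37, 0.205) or 3 (0.0505) and without knockdown2 replicate 1 (0.0541), 2 (0.0582) or 3 (0.0546). Knockdown1 was lower than knockdown2 for JUNB (-0.87 ± 0.19 SE, adjusted p = 9.21e-04 by limma).

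FOSL2, which encodes FRA2, rose in knockdown2 (0.73 ± 0.17 SE, adjusted p = 0.00136 by limma) and its difference in knockdown1 was 0.04 with a 95% interval of -0.31 to 0.38. JUND rose in knockdown2 (0.51 ± 0.14 SE, adjusted p = 0.00532 by limma), with 0.08 in knockdown1. Both FOSL2 and JUND were lower in knockdown1 than in knockdown2 (-0.69 and -0.42), and the second call was lost without knockdown1 replicate 2 (-0.37, adjusted p = 0.0872 by limma) or knockdown2 replicate 1 (-0.42, 0.0703), 2 (-0.42, 0.0712) or 3 (-0.44, 0.0574). JUN itself differed by 0.37 in knockdown1 and 0.28 in knockdown2, and ATF3 by 0.38 in knockdown1 and 0.21 in knockdown2, without passing the threshold. A dimmer JUN probe set was called higher in knockdown1 than in control (0.72, adjusted p = 0.0340 by limma over probe sets) and than in knockdown2 (0.77, 0.0286). The other further JUN probe sets were not called. With the values as deposited JUN (0.46), JUND (0.17) and ATF3 (0.46) passed it in knockdown1, and JUN also passed without control replicate 3 (0.49). FOSB did not pass the filter and was not tested.

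Of the KLF zinc-finger factors, 3 of 4 rose in both knockdowns, and all 4 were lower in knockdown1 than in knockdown2, KLF2 with the limit given below. Among all tested genes 14.3% rose in knockdown1, 13.7% rose in knockdown2, and 16.1% were lower in knockdown1 than in knockdown2. KLF4, a growth-arrest and reprogramming factor, had 119, 63.8 and 115 in knockdown1, 163, 152 and 138 in knockdown2, and 38.9, 40.0 and 50.1 in control. Every knockdown array of KLF4 was above the controls, with knockdown1 replicate 2 the closest to them. It rose by 1.14 ± 0.20 (SE, adjusted p = 5.30e-05 by limma) in knockdown1 and 1.78 ± 0.20 (SE, adjusted p = 8.47e-08 by limma) in knockdown2. KLF10, an early gene of the TGF-beta response, gave 681, 687 and 801 in knockdown1, 957, 1136 and 1060.0 in knockdown2, and 339, 321 and 495 in control. KLF6, which is induced in injured liver, gave 1233, 1105 and 1421 in knockdown1, 1509, 1679 and 1696 in knockdown2, and 624, 615 and 784 in control. For KLF10 and KLF6 the 3 groups did not overlap, knockdown2 being highest and control lowest. KLF10 rose by 0.93 ± 0.16 (SE) on the knockdown1 arrays and by 1.47 ± 0.16 (SE) in knockdown2, and KLF6 by 0.89 ± 0.14 (SE) in knockdown1 and 1.28 ± 0.14 (SE) in knockdown2, with adjusted p by limma between 3.19e-08 and 2.59e-05. Between the knockdowns the differences were -0.65 (KLF4), -0.54 (KLF10) and -0.38 (KLF6). The KLF4 call between the knockdowns was lost without knockdown1 replicate 2 (-0.36, adjusted p = 0.2 by limma) or knockdown2 replicate 1 (-0.59, 0.0624) and averaged over its probe sets (-0.35, 0.299), and that of KLF10 without knockdown1 replicate 1 (-0.50, 0.0515) or knockdown2 replicate 2 (-0.48, 0.0646). For KLF6 it was lost without knockdown1 replicate 1 (-0.37) or 2 (-0.30), any of the 3 knockdown2 arrays (-0.44, -0.36 and -0.35) or control replicate 1 (-0.38).

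KLF2, a factor best known from endothelium and T cells, was the dimmest member tested and just inside the filter, with 13.3, 1.17 and 1.46 in knockdown1, 26.6, 13.4 and 13.2 in knockdown2, and 27.1, 8.04 and 15.8 in control. Knockdown1 replicate 1 lay among the other groups and the remaining knockdown1 arrays were near 0, so the groups overlapped. KLF2 was above the array median on 3 arrays, knockdown2 replicate 1 and control replicates 1 and 3, and on no knockdown1 array. It thus entered the test only through the other groups, and its lower values in knockdown1 are a description only. The counts of falls and of lower members include it. With that limit, KLF2 fell by 1.80 on the log2 scale in knockdown1 (SE 0.67, adjusted p = 0.0388 by limma) and differed by 0.13 in knockdown2. That fall was not called without knockdown1 replicate 2 (-1.36, adjusted p = 0.123 by limma) or 3 (-1.44, 0.13), nor with the values as deposited (-1.73, 0.0601), and KLF2 did not pass the filter in 4 of the 19 alternative settings. FOS, with a mean signal of 27.6, was the next dimmest member inside the filter. No member lay just outside it: the 3 that failed were FOSB (mean signal 3.19), ARC (1.69), known from neurons, and DUSP2 (1.61), a phosphatase of immune cells, all of them above the array median on 0 arrays.

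**Figure D2:**
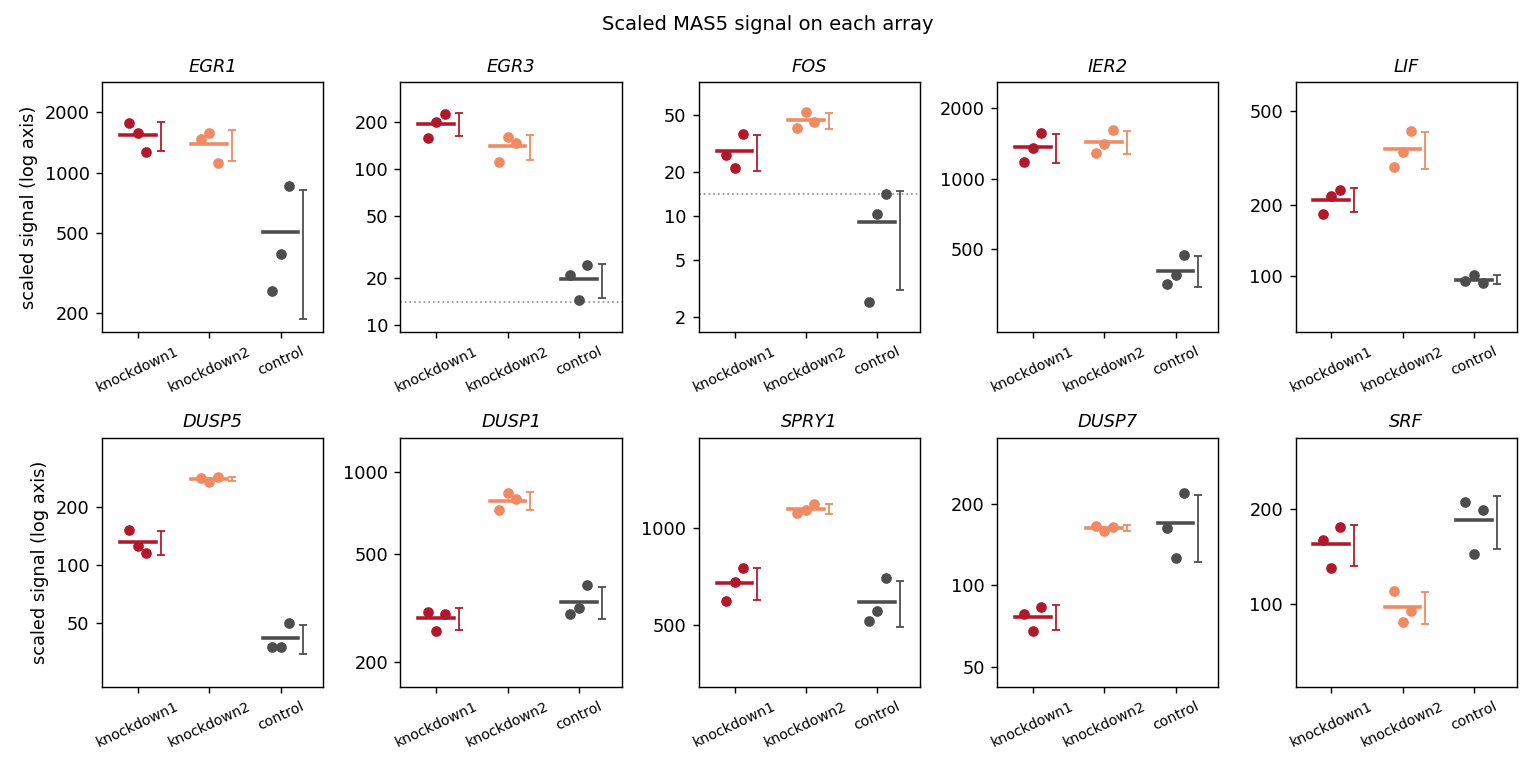
Scaled MAS5 signal (log axis, its own range for each gene) of 10 members in knockdown1, knockdown2 and control, with points for the 3 arrays of a group, thick lines for their mean and thin bars for ± 1 SD; the dotted line is the common array median of 14.1. EGR1, EGR3, FOS, IER2, LIF and DUSP5 are above control in both knockdowns, DUSP1 and SPRY1 stand out in knockdown2, DUSP7 is low in knockdown1 and SRF is low in knockdown2.

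Among the remaining members, IER2, IER3, IER5, LIF, MYC and PHLDA1 rose in both knockdowns. IER2, which encodes a small nuclear protein, had 1172, 1349 and 1559 in knockdown1, 1291, 1409 and 1607 in knockdown2, and 356, 386 and 473 in control. All knockdown arrays of IER2 lay above 2 times the highest control array, and both knockdowns overlapped. It rose by 1.74 ± 0.15 (SE, adjusted p = 2.39e-10 by limma) in knockdown1 and 1.83 ± 0.15 (SE, adjusted p = 1.98e-10 by limma) in knockdown2, with a difference of -0.08 between the knockdowns (95% interval -0.38 to 0.22). LIF, a secreted cytokine, gave 183, 218 and 231 in knockdown1, 290.4, 333 and 412 in knockdown2, and 95.5, 101 and 92.9 in control. The 3 groups of LIF stood apart, with knockdown2 highest, knockdown1 next and control lowest. LIF rose by 1.11 ± 0.16 (SE, adjusted p = 2.66e-06 by limma) in knockdown1 and by 1.81 ± 0.16 (SE, adjusted p = 9.22e-10 by limma) in knockdown2, and knockdown1 was lower than knockdown2 (-0.70 ± 0.16 SE, adjusted p = 0.00125 by limma).

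IER3, a regulator of cell survival under stress, had 3943, 3908 and 5125 in knockdown1, 5643, 6265 and 6592 in knockdown2, and 1868, 2008 and 2728 in control. Its groups did not overlap, and knockdown2 was again the highest. IER3 rose by 0.98 ± 0.14 (SE, adjusted p = 3.15e-06 by limma) in knockdown1 and 1.50 ± 0.14 (SE, adjusted p = 3.71e-09 by limma) in knockdown2, and knockdown1 was lower than knockdown2 by a log2 difference of -0.52. PHLDA1, which encodes a pleckstrin-homology-like protein linked to growth factor and apoptosis signals, gave 2888, 3073 and 3557 in knockdown1, 2355, 2952 and 2732 in knockdown2, and 1047, 1114 and 1432 in control. For PHLDA1 the knockdown arrays lay well above control, and the highest knockdown2 array reached into the range of knockdown1. PHLDA1 rose by 1.41 ± 0.14 (SE, adjusted p = 4.81e-09 by limma) in knockdown1 and 1.17 ± 0.14 (SE, adjusted p = 2.41e-07 by limma) in knockdown2, and all 6 of its probe sets were higher in both. The PHLDA1 difference between the knockdowns was 0.24 (95% interval -0.04 to 0.53) and passed the threshold with the values as deposited (0.36, adjusted p = 0.00614 by limma). It also passed after quantile normalization (0.45, 6.07e-04) and averaged over its probe sets (0.35, 0.0418). A further PHLDA1 probe set was called higher in knockdown1 than in knockdown2 (0.75, adjusted p = 1.99e-04 by limma over probe sets), as was another (0.43, 0.0222). The remaining ones were above 0 and not called. MYC, which drives growth and the cell cycle, rose by 0.61 ± 0.13 (SE) on the knockdown1 arrays and by 0.87 ± 0.13 (SE) in knockdown2, and IER5 by 0.70 ± 0.17 (SE) in knockdown1 and 0.95 ± 0.17 (SE) in knockdown2.

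MCL1, a BCL2-family survival protein, rose in knockdown2 (0.98 ± 0.13 SE, adjusted p = 8.10e-07 by limma), while its difference in knockdown1 was 0.22 (0.31 with the values as deposited, adjusted p = 3.61e-04 by limma, and 0.31 without control replicate 3, 0.0415). A further MCL1 probe set rose in knockdown1 (0.72, adjusted p = 0.00102 by limma over probe sets), and the others were not called there. Knockdown1 was lower than knockdown2 for MCL1 by a log2 difference of -0.76, which was -0.50 without knockdown2 replicate 3 (adjusted p = 0.0246 by limma) and -0.47 averaged over its probe sets (0.0145). ETV4, an ETS factor downstream of ERK, differed from control by 0.02 in knockdown1 (95% interval -0.28 to 0.32) and by -0.05 in knockdown2 (-0.35 to 0.25). Its relative ETV5 fell in knockdown1 (-0.39 ± 0.14 SE, adjusted p = 0.0308 by limma) and differed by -0.01 in knockdown2. Between the knockdowns ETV5 was lower in knockdown1 (-0.39, adjusted p = 0.0412 by limma), a call lost with the values as deposited (-0.27, 0.0945) and without knockdown1 replicate 1 (-0.28, 0.251), knockdown2 replicate 1 (-0.43, 0.0733), 2 (-0.36, 0.15) or 3 (-0.36, 0.15) or control replicate 1 (-0.39, 0.0629). ZFP36, whose product speeds the decay of short-lived mRNAs, fell in knockdown1 (-0.47 ± 0.17 SE, adjusted p = 0.0306 by limma) and differed by -0.14 in knockdown2. Both falls were small: that of ETV5 was not called with the values as deposited (-0.31, 0.0505), nor without knockdown1 replicate 1 (-0.28, 0.206), control replicate 1 (-0.35, 0.137) or any 1 of the 3 knockdown2 arrays (-0.39 each). That of ZFP36 was not called with the values as deposited (-0.39, 0.0625), nor without knockdown1 replicate 1 (-0.36, 0.156) or 2 (-0.50, 0.0521) or control replicate 1 (-0.49, 0.0637) or 2 (-0.41, 0.0744).

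SRF, the factor that binds CArG boxes, went the other way and was singled out after its values were seen. Its signals were 159.6, 130.1 and 175 in knockdown1, 110.0, 87.4 and 95.1 in knockdown2, and 209.7, 144 and 198 in control. All 3 knockdown2 arrays of SRF were below every other array, and knockdown1 overlapped control. SRF fell by 0.89 on the log2 scale in knockdown2 (SE 0.17, adjusted p = 2.13e-04 by limma), with -0.24 in knockdown1 (SE 0.17, 0.317), and was higher in knockdown1 than in knockdown2 by 0.66 (SE 0.17, 0.00466). A further, dimmer SRF probe set was not called (-0.24 in knockdown1 and -0.18 in knockdown2). Averaged over both probe sets the fall in knockdown2 was -0.53 (adjusted p = 0.0154 by limma) and the last difference was 0.29 (0.187).

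The DUSP phosphatases are feedback genes that inactivate ERK, JNK and p38 kinases. Of 7 tested, 2 rose and 1 fell in knockdown1 (28.6% and 14.3%, beside 14.3% and 19.0% of all tested genes). In knockdown2, 5 rose and 0 fell (71.4% and 0%, beside 13.7% and 13.9%). Between the knockdowns, 5 were lower and 0 higher in knockdown1 than in knockdown2 (71.4% and 0%, beside 16.1% and 10.5%). DUSP5, a nuclear phosphatase with a preference for ERK, had 152, 125 and 116 in knockdown1, 281, 269 and 284 in knockdown2, and 37.8, 37.7 and 50.3 in control. Its 3 groups were widely apart, with knockdown2 at about 2 times the level of knockdown1. DUSP5 rose by 1.61 ± 0.17 (SE, adjusted p = 9.71e-09 by limma) in knockdown1 and by 2.70 ± 0.17 (SE, adjusted p = 1.04e-12 by limma) in knockdown2, with knockdown1 lower than knockdown2 (-1.09 ± 0.17 SE, adjusted p = 9.39e-06 by limma). DUSP1, a nuclear phosphatase that acts on all 3 kinase groups, gave 307, 259.9 and 302 in knockdown1, 722, 836 and 798 in knockdown2, and 301, 315 and 383 in control. The knockdown2 arrays of DUSP1 were all far above the rest, and knockdown1 overlapped control. DUSP1 rose by 1.24 ± 0.15 (SE, adjusted p = 1.83e-07 by limma) in knockdown2, differed by -0.20 ± 0.15 (SE, adjusted p = 0.329 by limma) in knockdown1, and was lower in knockdown1 than in knockdown2 (-1.44 ± 0.15 SE, adjusted p = 1.22e-08 by limma). Averaged over the DUSP1 probe sets the rise in knockdown2 was 0.56 (adjusted p = 0.0184 by limma), the difference in knockdown1 was 0.21 (0.389) and that between the knockdowns was -0.36, the last 2 not called (0.136 between the knockdowns). DUSP10, which acts on JNK and p38, had 42.7, 54.6 and 52.5 in knockdown1, 95.1, 78.6 and 92.7 in knockdown2, and 42.7, 33.2 and 24.9 in control. Knockdown2 of DUSP10 was above all other arrays, and knockdown1 replicate 1 stood level with control replicate 1.

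DUSP10 rose by 1.39 ± 0.21 (SE, adjusted p = 8.77e-06 by limma) in knockdown2 and by 0.58 ± 0.21 (SE, adjusted p = 0.0345 by limma) in knockdown1. The call of DUSP10 in knockdown1 was lost without knockdown1 replicate 2 (0.51, adjusted p = 0.112 by limma) or 3 (0.54, 0.0916) or control replicate 2 (0.58, 0.0506) or 3 (0.39, 0.15). DUSP4, another nuclear phosphatase, rose in knockdown2 (1.08 ± 0.17 SE, adjusted p = 2.20e-05 by limma) and not in knockdown1 (0.19, 95% interval -0.17 to 0.55), with -0.89 between the knockdowns. DUSP6, the cytoplasmic ERK phosphatase often used as a readout of ERK activity, rose in knockdown2 by 0.50 (SE 0.14, adjusted p = 0.0068 by limma), a call lost without control replicate 1 (0.43, 0.0589). In knockdown1 DUSP6 differed by 0.20 (95% interval -0.08 to 0.48) and passed the threshold with the values as deposited (0.29, 0.00468) and without control replicate 3 (0.36, 0.0217). DUSP8, a phosphatase of JNK and p38, differed by 0.20 in knockdown1 and 0.16 in knockdown2 and was not called.

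DUSP7, a cytoplasmic ERK phosphatase singled out after its values were seen, was the 1 DUSP member that fell in knockdown1. It had 78.5, 67.8 and 83.3 in knockdown1, 166, 159 and 163 in knockdown2, and 163, 126 and 219 in control. All 3 knockdown1 arrays of DUSP7 were below all other arrays, and knockdown2 lay within the range of control. DUSP7 fell by 1.10 on the log2 scale in knockdown1 (SE 0.18, adjusted p = 1.40e-05 by limma) and differed by -0.02 in knockdown2 (95% interval -0.38 to 0.34). A further DUSP7 probe set, with signals of 0.898 to 19.3 around the array median, was not called (0.12 in knockdown1 and 0.73 in knockdown2), and the mean over both gave -0.49 in knockdown1 (adjusted p = 0.377 by limma) and -0.84 between the knockdowns (0.132).

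Among the Sprouty and SPRED genes with ERRFI1, which encodes an inhibitor of the EGF receptor, 2 of 6 rose and 1 fell in knockdown1, and 5 rose and 0 fell in knockdown2. These are 33.3% higher and 16.7% lower in knockdown1, beside 14.3% and 19.0% of all tested genes. In knockdown2 they are 83.3% higher and 0% lower, beside 13.7% and 13.9%. SPRY4, given here after its values were seen as the largest rise of the family in knockdown2, had 829, 1055 and 1126 in knockdown1, 1234, 1311 and 1377 in knockdown2, and 517, 546 and 654 in control. The 3 groups of SPRY4 did not overlap. SPRY4 rose by 0.80 ± 0.14 (SE, adjusted p = 6.41e-05 by limma) in knockdown1 and 1.20 ± 0.14 (SE, adjusted p = 2.72e-07 by limma) in knockdown2. SPRY1, likewise chosen after its values were seen, gave 596, 682 and 749 in knockdown1, 1112, 1135 and 1189.6 in knockdown2, and 516, 554 and 700.4 in control. Knockdown2 of SPRY1 lay above all other arrays, and knockdown1 overlapped control. SPRY1 rose by 0.97 ± 0.14 (SE, adjusted p = 7.08e-06 by limma) in knockdown2 and differed by 0.20 in knockdown1 (95% interval -0.09 to 0.50, and 0.29 with the values as deposited, adjusted p = 0.0175 by limma, or 0.33 without control replicate 3, 0.0449), and the knockdowns differed by -0.77 ± 0.14 (SE, adjusted p = 1.61e-04 by limma).

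SPRY2 rose in knockdown2 (0.47, adjusted p = 0.0172 by limma) and SPRED2 too (0.40, 0.0302), with 0.22 and 0.16 in knockdown1, where both passed the threshold with the values as deposited (0.31 and 0.25). The knockdown2 call of SPRY2 was lost without knockdown2 replicate 2 (0.41, 0.105) or 3 (0.48, 0.0573). That of SPRED2 was lost without knockdown2 replicate 1 (0.40), 2 (0.42) or 3 (0.37) or control replicate 1 (0.39) or 2 (0.32), and averaged over its probe sets (0.17, 0.425). SPRED1 rose by 0.93 ± 0.18 (SE, adjusted p = 1.60e-04 by limma) in knockdown1 and by 0.51 ± 0.18 (SE, adjusted p = 0.0354 by limma) in knockdown2, and the second call was lost without knockdown2 replicate 1 (0.52, 0.0697), 2 (0.48, 0.1) or 3 (0.52, 0.0632) or control replicate 1 (0.42, 0.148) or 2 (0.34, 0.169). SPRED1 differed between the knockdowns by 0.43 (0.0826), which passed with the values as deposited (0.54, 0.00489) and without knockdown1 replicate 2 (0.56, 0.0363) or control replicate 2 (0.0470) or 3 (0.0160). ERRFI1 fell in knockdown1 (-0.37 ± 0.13 SE, adjusted p = 0.0232 by limma), where its 3 arrays were all below control, and differed by 0.13 in knockdown2. The fall of ERRFI1 was not called without knockdown1 replicate 1 (-0.36, 0.0708) or 2 (-0.33, 0.0913) or control replicate 1 (-0.40, 0.0535) or 3 (-0.26, 0.0880). ERRFI1 and SPRY4 were lower in knockdown1 than in knockdown2 (-0.50 and -0.39), and that call of SPRY4 was lost without knockdown1 replicate 1 (-0.26, 0.286) or 2 (-0.43, 0.0583), knockdown2 replicate 1 (-0.43, 0.0774), 2 (-0.39, 0.124) or 3 (-0.35, 0.167) or control replicate 1 (-0.39, 0.0601).

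**Figure D3:**
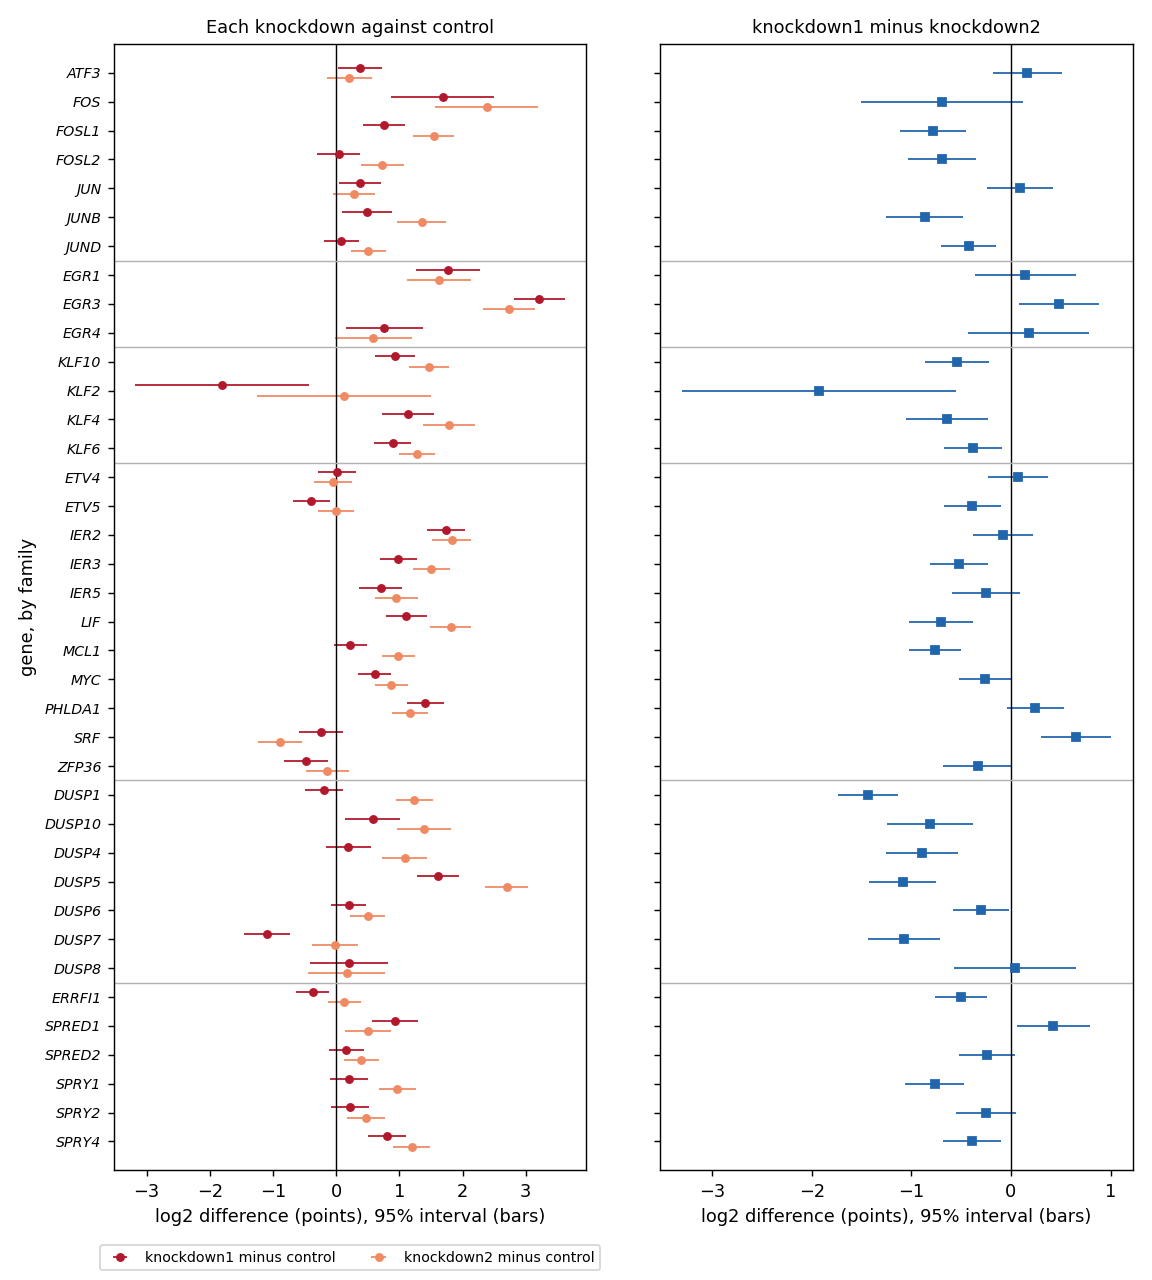
Log2 difference of each tested member (points) with its 95% interval (bars), for knockdown1 and knockdown2 minus control on the left and for knockdown1 minus knockdown2 on the right, genes grouped by family. In knockdown2, 27 of 38 members passed the threshold above 0, and on the right 20 of 38 passed it below 0.

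Further probe sets of the same genes mostly had the same sign as the brightest one. Of 46 further probe sets past the filter, 21 belonged to members called in knockdown1, where 20 had the same sign and 13 were called themselves, and 1 had the opposite sign. The called ones include the EGR4 probe set that lay under the array median on all control arrays. In knockdown2, 34 belonged to called members, with 32 of the same sign, 20 called, and 2 opposite. Between the knockdowns there were 26, of which 23 had the same sign, 7 were called, and 3 were opposite. Of those with the opposite sign, 0 were called in any comparison. Further probe sets of members not called in a comparison are outside these counts. Some of them were called, such as those of JUN and MCL1 in knockdown1. A gene with several probe sets does not give independent replicates, since they read the same RNA, and 18 of the 41 genes had 1 probe set.

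**Figure D4:**
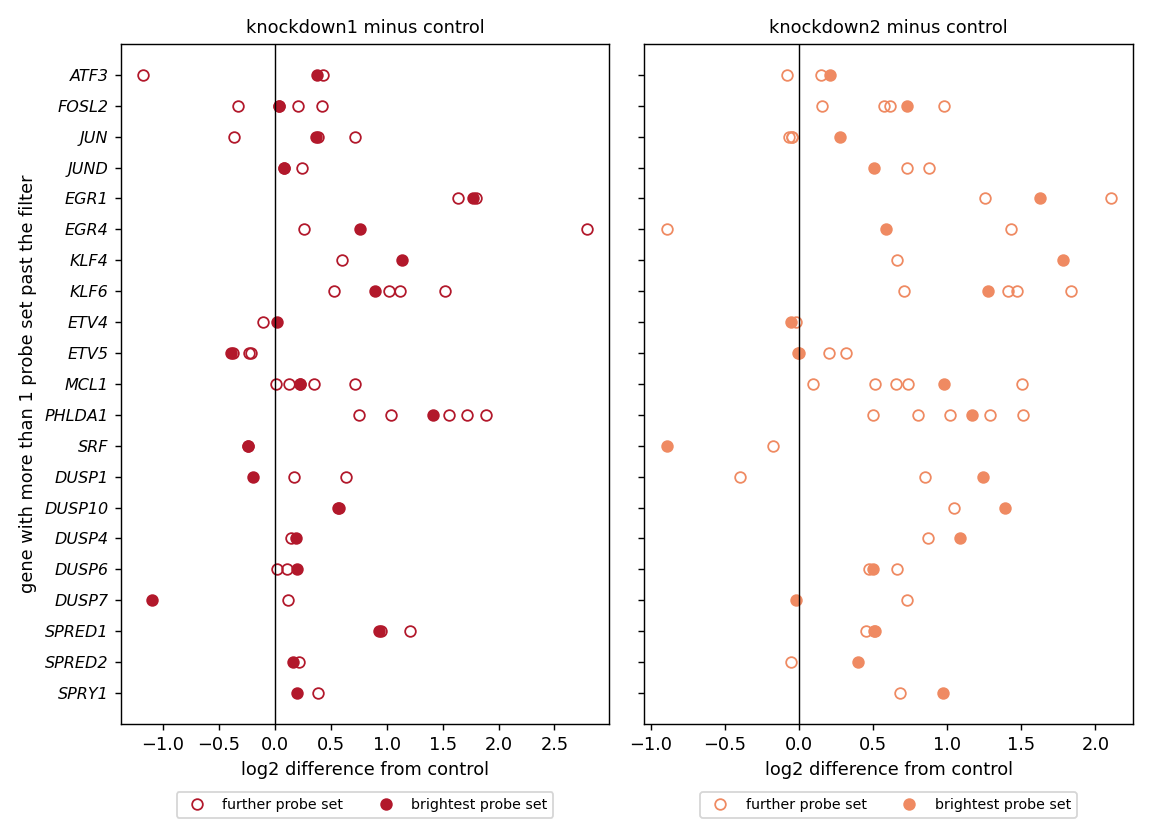
Log2 difference from control in knockdown1 (left) and knockdown2 (right) for each probe set past the filter of the members with several, with the brightest probe set filled and the further ones open. All probe sets of EGR1, KLF6 and PHLDA1 lie above 0 in both knockdowns, while those of DUSP7 and EGR4 spread widely.

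Upstream of these genes stood a list of 38 MAPK cascade genes, of which 26 were tested. There, 3 rose and 8 fell in knockdown1, 5 rose and 5 fell in knockdown2, and the medians were -0.15 and -0.04. That is 11.5% higher and 30.8% lower in knockdown1, beside 14.3% and 19.0% of all tested genes, and 19.2% in each direction in knockdown2, beside 13.7% and 13.9%. PTPN11, the phosphatase SHP2 that links receptors to RAS, rose by 1.38 ± 0.16 (SE) in knockdown1 and 1.63 ± 0.16 (SE) in knockdown2. GAB1, a docking protein for receptor signals, fell in both (-1.24 and -0.85, SE 0.18 each). MAP2K6, a kinase that activates p38, fell in knockdown2 (-1.99, SE 0.20, adjusted p = 1.27e-08 by limma) and differed by -0.45 in knockdown1 (0.0886; -0.65 and called without control replicate 2, 0.0166).

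Among 12 tested genes of 14 nuclear effectors and SRF cofactors, 2 rose and 1 fell in knockdown1 and 4 rose and 0 fell in knockdown2. These are 16.7% higher and 8.33% lower in knockdown1, beside 14.3% and 19.0% of all tested genes. In knockdown2 they are 33.3% higher and 0% lower, beside 13.7% and 13.9%. ELK3, a ternary complex factor that binds beside SRF, rose by 0.61 ± 0.18 (SE) in knockdown1, a call lost without control replicate 1 (0.42, adjusted p = 0.102 by limma), and by 1.58 ± 0.18 (SE) in knockdown2. ELK4, of the same kind, rose by 1.19 ± 0.20 (SE) in knockdown1 and 0.93 ± 0.20 (SE) in knockdown2. CREB1, which binds cyclic AMP response elements, fell by 1.36 on the log2 scale in knockdown1 (SE 0.15, adjusted p = 2.50e-08 by limma) and differed by -0.11 in knockdown2 (0.651). Averaged over its probe sets CREB1 differed by -0.65 in knockdown1 (0.00132).

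A further list of 47 immediate-early and ERK output genes that are not members had 39 tested, with 13 up and 13 down in knockdown1, 18 up and 4 down in knockdown2, and medians of 0.03 and 0.56. Between the knockdowns 1 was higher and 19 lower in knockdown1. The shares were 33.3% in each direction in knockdown1, beside 14.3% of all tested genes higher and 19.0% lower. In knockdown2 they were 46.2% higher and 10.3% lower, beside 13.7% and 13.9%. Between the knockdowns they were 2.56% higher and 48.7% lower, beside 10.5% and 16.1% of all tested genes. The exception was CXCL8, which encodes the neutrophil chemokine interleukin-8, with signals of 191, 182 and 224 in knockdown1, 21.3, 24.2 and 14.1 in knockdown2 and 9.91, 9.04 and 6.53 in control. CXCL8 was highest on all knockdown1 arrays and lay under the array median on all control arrays, so that it passed the filter through its 5 brighter knockdown arrays and its size against control is uncertain. Its differences were 4.35 in knockdown1 and 1.09 in knockdown2 from control (SE 0.26 each), and 3.26 between the knockdowns (adjusted p = 1.21e-10 by limma). The call in knockdown2 was lost where only the knockdown2 and control arrays were fitted (0.0973), and with a pseudocount equal to the array median the difference there was 0.58. EREG, an EGF receptor ligand, rose by 2.17 in knockdown1 and by 3.13 in knockdown2 (SE 0.15 each). DUSP9, a cytoplasmic ERK phosphatase outside the member list, fell in both (-2.18 and -1.32, SE 0.16 each).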

How the data were processed

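HepG2 total RNA was primed with oligo(dT), and biotin-labelled cRNA was hybridised to Affymetrix arrays, per the labels' protocols. Each deposited value is the intensity of a probe set on a linear scale, which the authors computed with MAS5, per the submitters' processing notes (version not given in the sources used). Such signals have no depth, and 3 arrays a group limit the precision. Each array was multiplied here by 0.898 to 1.15 to a common median of 14.1. That median lies among dim probe sets, so results with the values as deposited are given where they change a call. Of 54675 probe sets, 62 were controls, 41091 had 1 gene symbol, 1801 several and 11721 none, and those with several or none were left out. A probe set was kept if its value was above its array's median on at least 3 of 9 arrays (29685 probe sets), and the one with the highest mean log2 value stood for its gene. Log2(signal + 1.41), a pseudocount of 0.1 of the median, was fitted with limma 3.58.1 in R 4.3.3 (3 groups, eBayes with a variance trend, two-sided, Benjamini-Hochberg over 13056 genes). The fit was tested on simulated data. The 19 alternatives cover scaling, pseudocount, filter, variance trend, probe set choice, replicate block, arrays in the fit and leaving out each array. Values on every array are given for the up to 16 called members that differed most from control in either knockdown, and for each further list the 3 called genes that differed most are named. Those of EGR4, SRF, DUSP7, SPRY4 and SPRY1 are given in addition, outside that rule. The members and lists were chosen with earlier results of these data known.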

Additional observations from a re-analysis of the deposited data

Results flagged for a closer look

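For 3 members the differences from control had opposite signs in the knockdowns, and the direct comparison of knockdown1 with knockdown2 passed the threshold (limma with Benjamini-Hochberg adjustment). DUSP1 differed by -1.44 between the knockdowns (limma adjusted p = 1.22e-08), with -0.20 in knockdown1, which was not called, and 1.24 in knockdown2 against control. Averaged over its probe sets, DUSP1 differed by 0.21 in knockdown1 and by 0.56 in knockdown2, and the direct comparison was not called (-0.36, limma adjusted p = 0.136). ERRFI1 differed by -0.50 (limma adjusted p = 0.0034), with -0.37 in knockdown1 and 0.13 in knockdown2, of which the second was not called. KLF2 differed by -1.93 (limma adjusted p = 0.0328), with -1.80 in knockdown1 and 0.13 in knockdown2, of which the second was not called, and 2 of its 3 knockdown1 arrays had signals under 2. It passed the filter only on knockdown2 and control arrays, so its lower values in knockdown1 are a description only. The KLF2 difference was not called without knockdown1 replicate 2 (-1.48, 0.108) or 3 (-1.56, 0.113) or knockdown2 replicate 2 (-2.08, 0.0503).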

How the results depend on the processing

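Over 2154 values of single members under the 19 alternatives, 1948 kept their direction and their side of the threshold, 130 lost a call, 48 gained one and 28 changed sign, none of them called in either setting. Averaged over probe sets, the sign changed for ATF3 (-0.123), DUSP1 (0.21) and ETV4 (-0.0473) in knockdown1, DUSP7 (0.355) and ETV5 (0.128) in knockdown2, and ATF3 (-0.215), SPRED2 (0.0176) and ETV4 (-0.0113) between the knockdowns. IER2 changed sign between the knockdowns without scaling (0.038) and after quantile normalization (0.0687). With 1 array left out, values that took both signs ranged in knockdown1 over -0.0274 to 0.1114 (FOSL2), -0.0554 to 0.1985 (JUND), -0.0004 to 0.4718 (DUSP8) and -0.1115 to 0.1074 (ETV4). In knockdown2 they ranged over -0.2827 to 0.2881 (KLF2), -0.2131 to 0.182 (DUSP7), -0.0938 to 0.5478 (DUSP8) and -0.0558 to 0.0406 (ETV5). Between the knockdowns they ranged over -0.0044 to 0.2795 (EGR1), -0.3436 to 0.3074 (DUSP8), -0.1849 to 0.0208 (IER2) and -0.0598 to 0.1591 (ETV4). Calls of 16 of 24 members in knockdown1 (0 of the 5 falls among them), 24 of 28 in knockdown2 and 10 of 21 between the knockdowns held under every alternative that could test them. Without a variance trend 13 members (1 higher, 12 lower) were called between the knockdowns in place of 21, and the cause was not tested. With 1 array left out, 18 to 24 members were called in knockdown1, 25 to 28 in knockdown2 and 15 to 23 between the knockdowns. With the replicate block, 25, 28 and 24 members were called. Arrays with the same replicate number in different groups had deviations that correlated at -0.0249 to 0.134, so the numbers were not taken as pairs. Of all calls in knockdown1 42.9% were higher, against 54.2% with the values as deposited and 53.7% after quantile normalization. Between the knockdowns these shares were 39.4%, 57.1% and 56.1%. Without control replicate 3, 54.2% of calls in knockdown1 and 62.8% in knockdown2 were higher, in place of 42.9% and 49.8%. Without control replicate 2 these shares were 33.9% and 38.9%. Signals near the array median limit what can be said of KLF2, FOS, DUSP8 and EGR4.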
